A study of Homo sapiens with 40 samples.

Results

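The 32 genes described here make cholesterol and fatty acids or control that synthesis. They were chosen by name, by the Ensembl identifiers of their symbols, and are 32 of the 60279 genes listed in the count tables. Of the 32, 7 belong to the mevalonate branch (ACAT2, HMGCS1, MVK, PMVK, MVD, IDI1 and FDPS), 11 to the steps from squalene to cholesterol, 6 to control and transport, and 8 to fatty acids. The first 2 branches together are called the 18 sterol enzymes.

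All cells were T47D, an established human breast cancer line, at passage 10. They were grown in RPMI medium with fetal bovine serum, and the labels name no drug treatment. Single cells were sorted for the surface proteins EpCAM and CD49f, 1 cell to a well, and their poly(A) RNA was turned into full-length cDNA by 3 protocols: G&T (13 cells), which separates the RNA of a cell from its DNA, the Takara SMART-seq HT kit (13 cells), and the NEB single cell/low input kit (14 cells). The cells of a protocol were sequenced together in 1 run of their own, which leaves the effect of the run and of the protocol impossible to separate (they cannot be told apart), and nothing says that the cells of a protocol came from separate cultures. The cells are therefore no replicates of a protocol, no test was made between protocols and no p-value is given. The text describes the 33 cells, 11 for each protocol, that remained without wells that missed a threshold on genes, library size, mitochondrial or ERCC reads, namely C2 and F1 of G&T, C2 and F1 of Takara, and B2, F1 and F2 of NEB. Of these cells, reads on genes numbered from 624772 to 1287911. G&T cells held reads on 11348 ± 991 genes (SD, n = 11 cells), Takara cells on 11177.5 ± 463 and NEB cells on 5277 ± 661. ERCC spike-ins, RNA added in known amounts, averaged 1.86% ± 0.474 of G&T libraries, 0.968% ± 0.264 of Takara libraries and 11.7% ± 4.10 of NEB libraries. The T47D label was checked on EPCAM, KRT8, KRT18, KRT19, ESR1, PGR, GATA3 and FOXA1, which each pooled to at least 44.8 CPM, reads of a gene per 1000000 reads on genes, in each protocol. Among markers of other cell types, ADIPOQ, a fat cell marker, had no reads in any of the 33 cells. The leukocyte marker PTPRC had 2 reads in G&T and none in the other protocols. PECAM1, ALB, LEP and PLIN1 had 12, 5, 3 and 2 reads in G&T and none in the other protocols. COL1A1 was not absent, with 114 reads in 11 G&T cells, 148 in 10 Takara cells and 86 in 9 NEB cells. Its lowest pooled level was 10.8 CPM, in NEB.

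Cholesterol is built from acetyl-CoA through mevalonate, isoprenoid units and squalene, and fatty acids from acetyl-CoA through malonyl-CoA. When sterols in the endoplasmic reticulum are low, SCAP escorts the SREBP proteins (from SREBF1 and SREBF2) to the Golgi for cleavage, and the released part enters the nucleus and switches on genes of both pathways. INSIG1 and INSIG2 hold SCAP back when sterols are plentiful. Breast cancer cells are known for high lipid synthesis.

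Ratios against NEB went with the base composition of the transcripts, so 150 coding bases of the longest coding exon are shown for the 3 members farthest to the G&T side in the G&T over NEB ratio (DHCR7, FASN and MVD) and for the 3 farthest to the NEB side among those with reads in each of the 11 NEB cells (MSMO1, ACAT2 and HMGCS1). Capitals mark G and C, the sequences run 5′ to 3′ in GRCh38, and the first 3 are each 66.7% G and C. The 6 genes are listed as ENSG00000172893 (DHCR7), ENSG00000169710 (FASN), ENSG00000167508 (MVD), ENSG00000052802 (MSMO1), ENSG00000120437 (ACAT2) and ENSG00000112972 (HMGCS1).
DHCR7, chr11:71435690-71435839, minus strand: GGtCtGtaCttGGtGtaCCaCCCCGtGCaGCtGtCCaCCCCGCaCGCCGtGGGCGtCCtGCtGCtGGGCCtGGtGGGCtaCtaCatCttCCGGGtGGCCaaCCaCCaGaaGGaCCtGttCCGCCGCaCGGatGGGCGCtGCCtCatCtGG
FASN, chr17:82091535-82091684, minus strand: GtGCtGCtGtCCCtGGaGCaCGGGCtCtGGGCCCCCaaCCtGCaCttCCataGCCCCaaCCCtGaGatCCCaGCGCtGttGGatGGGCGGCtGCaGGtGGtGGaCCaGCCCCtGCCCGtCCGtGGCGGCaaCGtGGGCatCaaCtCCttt
MVD, chr16:88655268-88655417, minus strand: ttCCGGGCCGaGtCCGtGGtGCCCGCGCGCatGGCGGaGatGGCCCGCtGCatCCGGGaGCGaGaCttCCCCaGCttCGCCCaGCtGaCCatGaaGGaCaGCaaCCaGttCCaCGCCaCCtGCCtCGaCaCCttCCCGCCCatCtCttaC
MSMO1, chr4:165333371-165333520, plus strand, 35.3% G and C: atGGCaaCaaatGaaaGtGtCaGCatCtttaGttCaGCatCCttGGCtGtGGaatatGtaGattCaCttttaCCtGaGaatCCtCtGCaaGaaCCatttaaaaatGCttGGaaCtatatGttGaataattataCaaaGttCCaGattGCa
ACAT2, chr6:159767005-159767154, plus strand, 53.3% G and C: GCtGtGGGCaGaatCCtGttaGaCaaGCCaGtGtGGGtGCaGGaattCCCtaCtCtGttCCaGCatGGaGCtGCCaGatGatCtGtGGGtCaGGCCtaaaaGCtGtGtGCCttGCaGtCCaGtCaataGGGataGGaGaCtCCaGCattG
HMGCS1, chr5:43298816-43298965, minus strand, 41.3% G and C: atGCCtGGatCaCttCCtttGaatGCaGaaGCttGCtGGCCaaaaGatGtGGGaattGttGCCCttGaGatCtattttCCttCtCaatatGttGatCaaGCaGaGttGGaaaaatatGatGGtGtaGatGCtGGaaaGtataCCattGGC

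In the mevalonate branch the first steps were read most in NEB and some of the middle steps hardly at all. A level below is the pooled CPM, the reads of the 11 cells summed over the reads on genes, followed by the lowest, median and highest cell. It is a share of the reads on genes and not an amount of RNA. Per ERCC read, the 32 members together averaged 0.181 reads in G&T cells, 0.424 in Takara cells and 0.0252 in NEB cells. A gene higher in NEB by CPM therefore need not be higher in NEB per ERCC read, a scale not computed for single members. Intervals are exact 95% Poisson intervals and cover counting error only, since the reads carry no molecular identifiers. ACAT2, which joins 2 acetyl-CoA, was at 66.4 CPM in G&T (cells 5.14, 59.0 and 192), 159 in Takara (64.0, 143 and 346) and 349 with NEB (123, 319 and 561). HMGCS1, which makes HMG-CoA, was at 43.6 CPM in G&T (9.91, 32.2 and 201), 10.9 in Takara (1.55, 11.5 and 21.3) and 149 with NEB (22.5, 137 and 318). Each NEB cell was above each Takara cell for HMGCS1, by a narrow gap (22.5 against 21.3 CPM). The gap closed when cells were thinned to 1 depth, by 1 random draw that other draws need not repeat. The pooled CPM was 13.6-fold higher in NEB, while the G&T cells overlapped both. Of the exon bases of HMGCS1, 37.7% also lie in an antisense gene, and of ACAT2 17.2% in TCP1, and reads in such stretches could not be assigned without strand.

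MVK, mevalonate kinase, was at 45.4 CPM in G&T (1.05, 30.4 and 141), 14.9 in Takara (3.55, 13.2 and 33.7) and 0.627 with NEB (interval 0.204 to 1.46), where 1 cell held all 5 reads. PMVK, the next kinase, was at 98.4 CPM in G&T (43.6, 92.5 and 192), 209 in Takara (87.1, 209.7 and 289.97) and 27.6 with NEB (0, 8.52 and 146), with reads in 6 NEB cells. MVD, which makes isopentenyl diphosphate, was at 35.6 CPM in G&T (15.7, 28.5 and 77.6) and 73.1 in Takara (21.3, 72.7 and 112), and had no read in any NEB cell. A count of 0 in NEB was set to a floor of 0.376 CPM (3 reads over the 11 cells). Against that floor MVD was 94.6-fold higher in G&T and 194-fold higher in Takara. The 95% Poisson interval of the NEB count reaches further, to 0.463 CPM. Since no NEB cell held a read, the MVD cells of both protocols lay above all NEB cells. IDI1, the isomerase, differed little by comparison, with 192 CPM in G&T, 213 in Takara and 248 with NEB, and FDPS, which makes farnesyl diphosphate, had 30.3, 56.8 and 81.3 CPM. Both were read in all 33 cells. FDPS shares 18.6% of its exon bases with RUSC1-AS1 and IDI1 15.0% with IDI2-AS1.

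**Figure D1:**
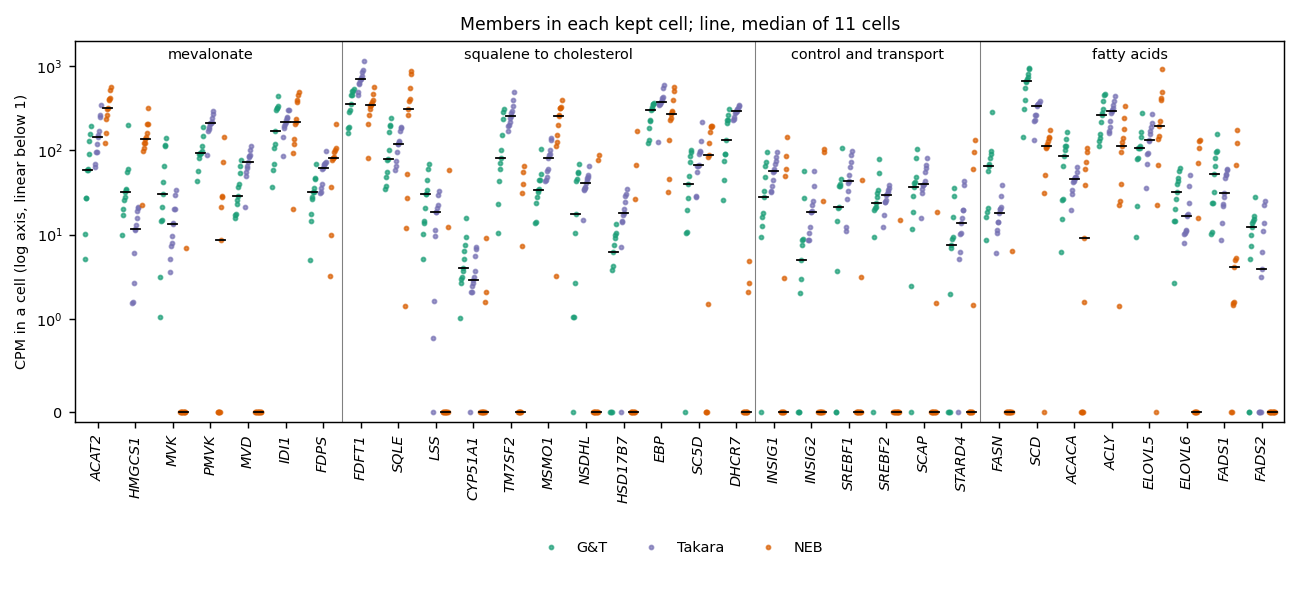
CPM of the 32 members in each of the 33 kept cells, on a log axis that is linear below 1, grouped by branch. Points are cells and black lines the medians of 11 cells; the NEB median lies at 0 for members such as MVK, MVD, DHCR7, SREBF1, SREBF2, SCAP and FASN.

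From squalene to cholesterol, EBP and FDFT1 had many reads in all 33 cells, while DHCR7 and MSMO1 lay at opposite ends of the ratios against NEB. EBP, the sterol isomerase, was at 257 CPM in G&T (122, 299 and 364), 397 in Takara (124, 375 and 601) and 281 with NEB (32.0, 272 and 565). FDFT1, squalene synthase, was at 359.7 CPM in G&T (161, 359 and 538), 717 in Takara (452, 703 and 1164) and 337 with NEB (80.5, 348 and 568). The cells of the 3 protocols overlapped for both. Per kilobase of merged exons EBP was the highest member in each protocol, at 145 RPKM (CPM per kilobase) in G&T, 225 in Takara and 159 with NEB.

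DHCR7, which catalyses the last step to cholesterol, was at 149 CPM in G&T (25.9, 132 and 313) and 285 in Takara (229, 289.5 and 342). In NEB it had 7 reads in 3 cells, 0.878 CPM with an interval of 0.353 to 1.81, and the highest NEB cell was at 4.80 CPM. All G&T and all Takara cells lay above all NEB cells, with pooled levels 169.5-fold and 325-fold higher. TM7SF2, a sterol C14 reductase, was at 114 CPM in G&T (10.4, 80.0 and 313), 282 in Takara (168, 256 and 498) and 17.3 with NEB (0, 0 and 64.7). Each Takara cell was above each NEB cell for TM7SF2, while G&T and NEB cells overlapped. MSMO1, the C4 methyl oxidase, ran the other way, with 37.9 CPM in G&T (13.7, 33.5 and 105), 81.2 in Takara (43.0, 80.5 and 142) and 230.1 with NEB (3.20, 253 and 400.3). That is 6.07-fold higher in NEB than in G&T, although the lowest NEB cell was below every G&T cell.

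Of the remaining sterol enzymes, SQLE, squalene epoxidase, was at 115, 125 and 343 CPM in G&T, Takara and NEB, and its NEB cells ran from 1.42 to 868. SC5D, the C5 desaturase, was at 44.5, 83.9 and 93.4 CPM. LSS, lanosterol synthase, was at 28.8, 14.3 and 8.15 CPM, with reads in 2 NEB cells, and without NEB cell D1 its log2 ratio of G&T over NEB went from 1.71 to 3.801. NSDHL was at 28.3, 41.7 and 17.6 CPM with reads in 2 NEB cells. HSD17B7 was at 5.89, 18.7 and 23.0 CPM, of which 3 NEB cells held all NEB reads, and without NEB cell H2 its log2 ratio of G&T over NEB went from -1.80 to -0.51. Its pseudogene HSD17B7P2 took 65, 23 and 31 reads beside 56, 219 and 183 on HSD17B7, so its G&T level is uncertain. The other 5 pseudogenes of members with reads, IDI1P1, FDPSP8, SCDP1, CYP51A1P1 and CYP51A1P2, held at most 8 reads in any protocol. CYP51A1, the C14 demethylase, was at 5.58, 3.50 and 1.13 CPM, the lowest sterol enzyme in G&T and in Takara.

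The genes that control synthesis were the branch least often read in NEB, with reads in 25.8% of gene and cell pairs against 83.3% in G&T and 98.5% in Takara. SREBF1 was at 28.5 CPM in G&T (0, 21.0 and 105), 49.6 in Takara (11.1, 43.0 and 98.8) and 3.89 with NEB, where 2 cells held reads. SREBF2 was at 27.3 CPM in G&T (0, 24.0 and 79.0), 27.6 in Takara (12.1, 29.4 and 38.4) and 1.25 with NEB, where cell A1 held all 10 reads. SCAP was at 36.9 CPM in G&T (0, 36.5 and 104), 46.9 in Takara (15.8, 39.6 and 80.0) and 2.38 with NEB, where 2 cells held reads. For these 3 the NEB median was 0, and since some G&T cells were at 0 too, G&T and NEB cells overlapped. Each of these NEB levels rested mostly on 1 cell: the log2 ratio of G&T over NEB went from 2.59 to 4.39 for SREBF1 without cell G2, from 3.65 to 4.82 for SREBF2 without A1, and from 3.49 to 5.05 for SCAP without D1.

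INSIG1, the sterol-dependent anchor of SCAP, was at 33.5 CPM in G&T (0, 28.2 and 94.5), 59.7 in Takara (32.0, 56.5 and 94.95) and 32.5 with NEB (0, 0 and 145). INSIG2, its relative, was at 9.58, 22.0 and 19.3 CPM, and STARD4, a sterol carrier, at 9.68, 17.8 and 30.1 CPM. In NEB these came from 3 and 4 cells. Without NEB cell A2 the log2 ratio of G&T over NEB of STARD4 went from -1.54 to -0.88, and without E1 that of INSIG2 from -0.94 to -0.17. With the median of the cells in place of the pooled level, the ratio turned to 3.08 for STARD4 and, among the sterol enzymes, to 2.86 for HSD17B7, since most NEB cells had no read.

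Among fatty acid genes FASN and FADS2 were the ones nearly or wholly unread in NEB. FASN, fatty acid synthase, was at 73.5 CPM in G&T (8.67, 64.4 and 288), 18.9 in Takara (6.11, 17.8 and 39.2) and 0.627 with NEB (interval 0.204 to 1.46), with 5 reads in cell A2. Each G&T cell was above each NEB cell, and the lowest Takara cell, at 6.11, was just below the highest NEB cell, at 6.30. SCD, the stearoyl-CoA desaturase, was at 591 CPM in G&T (144, 665 and 945), 295 in Takara (132, 332 and 382) and 101 with NEB (0, 113 and 176). Its highest NEB cell was above its lowest G&T and Takara cells, so all 3 protocols overlapped. ELOVL5, an elongase, was at 104 CPM in G&T (9.34, 108 and 280.4), 139 in Takara (35.5, 131 and 267) and 287 with NEB (0, 193 and 927). FADS2, a desaturase, was at 10.9 CPM in G&T (0, 12.2 and 28.2) and 7.51 in Takara (0, 3.88 and 24.9) and had no read in NEB.

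The pooled levels of the other fatty acid genes lay closer together, while their cells in NEB did not. ACLY, which makes cytosolic acetyl-CoA from citrate, was at 259.8 CPM in G&T, 286 in Takara and 113 with NEB. ACACA, acetyl-CoA carboxylase, was at 77.5, 43.2 and 35.9 CPM, and the median cell at 86.6, 46.2 and 9.11, with reads in 7 NEB cells. ELOVL6, an elongase, was at 32.2, 18.8 and 38.3 CPM, and the median cell at 32.4, 16.8 and 0, with reads in 5 NEB cells. FADS1, a desaturase, was at 55.7, 37.2 and 35.0 CPM, and the median cell at 52.0, 30.9 and 4.15. A few NEB cells held most of the reads of these 3, and without NEB cell E2 the log2 ratio of G&T over NEB of FADS1 went from 0.66 to 1.41.

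Counted over the members with a mean of at least 10 CPM in a pair of protocols, large differences were about as frequent as over all genes. A difference here is a pooled ratio of at least 2-fold after adding 1 CPM. In G&T over NEB, 13 of 30 members were higher in G&T against 35% of all 7898 genes, and 9 of 30 were higher in NEB against 23.6%. In Takara over NEB, 11 of 28 were higher in Takara against 37.3% of all 7866 genes, and 5 of 28 were higher in NEB against 25.8%. In G&T over Takara, 4 of 30 were higher in G&T against 17.3% of all 8397 genes, and 7 of 30 were higher in Takara against 20.2%. These shares were near the background, so they are no result about the members, and the 3 pairs share cells. The count of 7 in G&T over Takara was 12 without G&T cell A2 or C1 and 4 without Takara cell G1. PMVK, MVD, MSMO1, INSIG2 and SCD each went under 2-fold in G&T over Takara when 1 cell was left out, as did HSD17B7, STARD4, SC5D and ACACA in G&T over NEB, and FDFT1, ACAT2 and ELOVL5 in Takara over NEB.

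Cells that did not overlap at all were few. Each G&T cell was above each NEB cell for MVD, DHCR7 and FASN, 3 of 30 members against 5.42% of all genes, and the reverse held for 0 of 30 against 1.92%. Each Takara cell was above each NEB cell for MVD, TM7SF2 and DHCR7, 3 of 28 against 12.3%, and the reverse for HMGCS1 alone, 1 of 28 against 2.77%. Between G&T and Takara no member separated, against 1.12% of all genes with G&T above and 2.2% with Takara above. With all deposited cells the counts for Takara and NEB fell to 0 in both directions. The added wells include Takara F1 and NEB F1, with 7990 and 1421 reads on genes. A gene unread in such a well cannot stay apart, so this fall was fixed in advance. The call of HMGCS1 was also lost with ERCC reads in the total and with cells thinned to 1 depth by 1 random draw.

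The median log2 ratio of the members was -0.59 in G&T over Takara, beside -0.12 over all genes compared. The 17 sterol enzymes compared had a median of -0.90 and the 7 fatty acid genes one of 0.75. A wider list of fatty acid synthesis and use, described below, did not share the latter. Its median was -0.23, with 5 of 15 genes above 0 and 10 below. The wider list of sterol and isoprenoid genes had a median of -0.71, with 2 of 10 genes above 0 and 8 below. In G&T over NEB the medians were 0.38 for members and 0.20 for all genes, and in Takara over NEB 0.38 and 0.24. With the median of the cells in place of the pooled level, the medians in G&T over NEB were 3.21 for members and 1.38 for all genes. Among the branches, by pooled level, control and transport genes stood highest against NEB. Their median was 1.32 in G&T over NEB and 2.11 in Takara over NEB, over 6 genes each. These medians are descriptions of lists chosen with results known.

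Ratios against NEB followed the GC content of the canonical transcript, a relation looked for after the values were seen. Across the 30 members, Spearman's rho between GC content and the log2 ratio of G&T over NEB was 0.80, against 0.62 across 7868 genes with a sequence. Across 28 members it was 0.74 in Takara over NEB, against 0.67 across 7843 genes. In G&T over Takara it was 0.11 across 30 members and -0.21 across 8377 genes. Genes of 1 set of cells are not independent replicates, and the first 2 relations share the NEB cells. The 6 members with at least 60% GC (FASN, MVD, MVK, SCAP, SREBF1 and TM7SF2) were all at least 2-fold higher in G&T than in NEB, as were 87.0% of the 694 genes of that class. Of the 7 members under 40% (ELOVL5, HMGCS1, IDI1, INSIG2, MSMO1, SC5D and STARD4), 5 were at least 2-fold higher in NEB, as were 47.1% of 1754 genes. FDPS, at 55.05% GC, was the only compared member in the class from 55% to 60% that was higher in NEB than in G&T, by 2.68-fold.

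**Figure D2:**
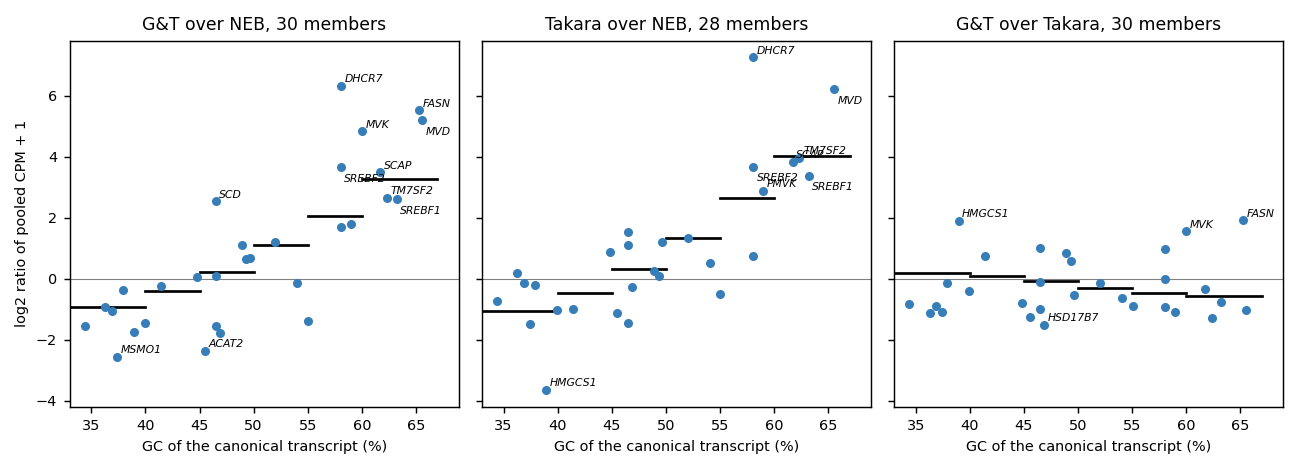
Log2 ratio of the pooled CPM (1 CPM added) against the GC content of the canonical transcript in percent, for each pair of protocols. Points are members with a mean of at least 10 CPM and black lines the medians of all genes in each GC class; the lines run from -0.92 to 3.25 in G&T over NEB and from 0.17 to -0.56 in G&T over Takara.

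The same split was seen in the number of cells with reads. The 16 members of lower GC (34.4% to 48.9%) had reads in 70.5% of gene and cell pairs in NEB, and the 16 of higher GC (49.3% to 65.5%) in 38.1%. In G&T the 2 groups stood at 93.8% and 96.0%, and in Takara at 98.3% and 97.2%. Of the higher group, 10 members were read in 3 NEB cells or fewer, and of the lower group 3. Over all genes with a mean of at least 10 CPM, the share of pairs with reads in NEB went from 67.003% under 40% GC to 25.3% at 60% and above. A cell held reads on 30.4 ± 2.06 members in G&T, 31.3 ± 0.786 in Takara and 17.4 ± 2.42 with NEB (SD, n = 11 cells), and thinning each cell to 624772 reads left 30.2, 31.1 and 17.3. Over the members 94.9%, 97.7% and 54.3% of pairs had reads, beside 93.3%, 95.5% and 54.1% over all 8229 genes of that level.

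**Figure D3:**
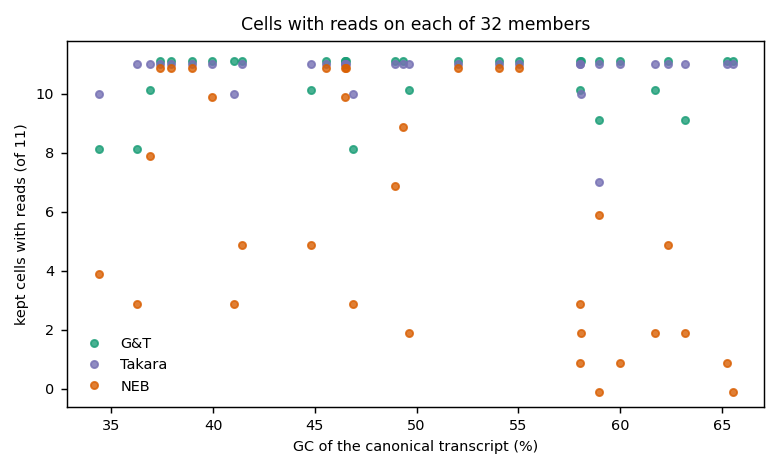
Number of the 11 kept cells with reads on each of the 32 members, against the GC content of the canonical transcript in percent, in each protocol (points are shifted slightly so that they do not hide each other). NEB points lie at 11 for 9 members and at 0 for 2, MVD and FADS2.

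Between G&T and Takara the ratios of the members followed transcript length. Spearman's rho between length and the log2 ratio was 0.69 across the 30 members, against 0.38 across all genes. In G&T over NEB it was 0.16 across members and -0.12 across all genes, and in Takara over NEB -0.09 and -0.34. HMGCS1 and FASN, with canonical transcripts of 5350 and 8464 bases, were 3.99-fold and 3.90-fold higher in G&T by pooled CPM, and MVK, at 2833 bases, was 3.05-fold higher. ACAT2, HSD17B7 and TM7SF2, with 1520, 1528 and 1578 bases, were 2.40-fold, 3.17-fold and 2.48-fold higher in Takara. The shortest, PMVK, EBP and FDPS, with 1002, 1125 and 1417 bases, were 2.13-fold, 1.55-fold and 1.88-fold higher in Takara. The fatty acid genes include the longest transcripts, FASN and ACACA (10013 bases), and 5 of the 7 compared had a ratio above 0, as did 45.8% of all genes. The part of length apart from branch was not tested. SC5D, at 6854 bases and 1.88-fold higher in Takara, went against the trend.

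**Figure D4:**
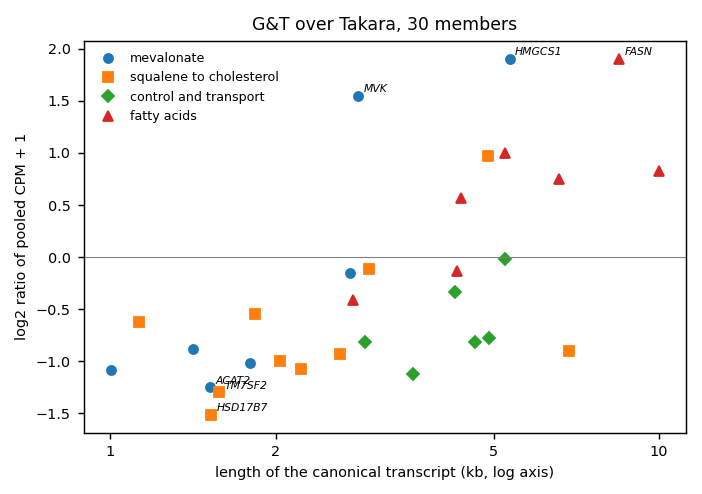
Log2 ratio of G&T over Takara (pooled CPM with 1 CPM added) against the length of the canonical transcript in kilobases, on a log axis, for the 30 members with a mean of at least 10 CPM. Symbols mark the branch; the ratios run from -1.51 for HSD17B7 to 1.91 for FASN.

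Summed over the 32 members, a cell held 3118 ± 1052 CPM in G&T, 3850 ± 321 in Takara and 2864 ± 777 with NEB (SD, n = 11 cells). The coefficient of variation of the sum was 33.8%, 8.33% and 27.1%, and per ERCC read, in place of reads on genes, it was 43.6%, 29.6% and 57.1%. For single members it had a median of 68.5% in G&T, 38.8% in Takara and 95.6% with NEB, beside 71.1%, 49.97% and 127% over all genes at 10 CPM or more. DHCR7 was the steadiest member in Takara, at 13.5%. In G&T, cells E2 and H1 held the lowest sums, 1397 and 1517 CPM, and the other 9 cells held 2302 to 4266.

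Pairs of members were described by how their CPM went together across cells. The median Spearman correlation between pairs of sterol enzymes was 0.26 in G&T over 14 genes and 11 cells, against 0.05 over pairs of all genes read in each cell. In Takara it was -0.03 against 0, and in NEB 0.25 over 8 genes against 0. Without the 2 cells farthest from the median sum it was 0.23, -0.02 and 0.10. The highest pairs in G&T were IDI1 with DHCR7, at 0.94, and IDI1 with LSS, at 0.87. The summed sterol enzymes and summed fatty acid genes had a correlation of 0.58 in G&T, 0.27 in Takara and -0.28 with NEB over 11 cells each. Leaving out 1 cell gave 0.45 to 0.79 in G&T, 0.03 (without E2) to 0.39 in Takara and -0.54 (without A2) to -0.09 (without C2) in NEB, and all deposited cells gave 0.56 for Takara and 0.12 for NEB. The deposited cells include nearly empty wells, Takara C2 and F1 and NEB F1, which were low in both sums. These correlations moved with single cells. All CPM of a cell share 1 total.

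Other properties of the G&T cells moved with the summed members. Spearman's rho of the sum was 0.91 with the share of reads outside annotated genes, 0.84 with genes detected, 0.63 with the summed CPM of 10 G2 and mitosis genes and -0.60 with reads on genes, over 11 cells. Their part in these correlations was not tested. In Takara the same 4 values, in that order, were 0.65, 0.24, -0.50 and 0.15, the last 2 of opposite sign to G&T, and in NEB they were 0.19, 0.35, 0.24 and 0.43.

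**Figure D5:**
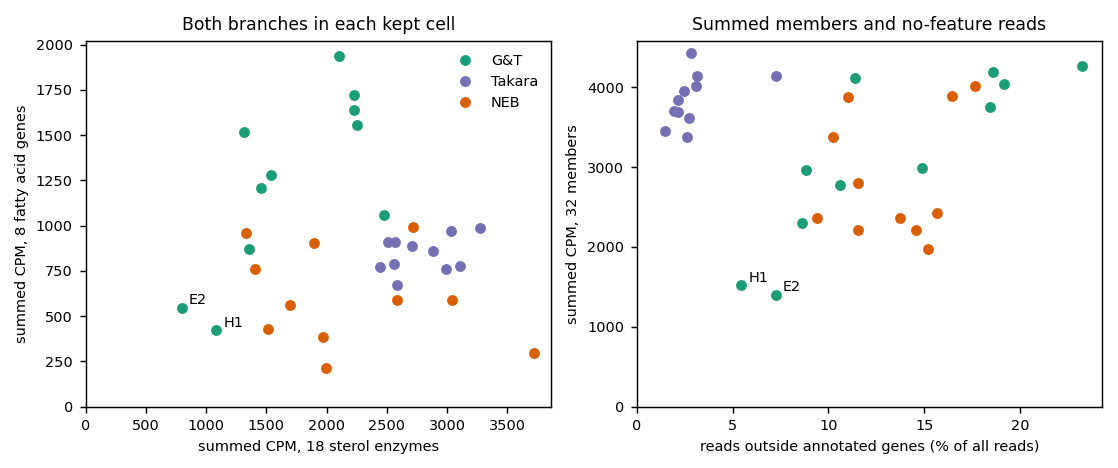
Left, summed CPM of the 8 fatty acid genes against that of the 18 sterol enzymes in each kept cell. Right, summed CPM of the 32 members against the share of reads outside annotated genes, in percent of all reads; G&T cells E2 and H1 hold the lowest sums, 1397 and 1517 CPM.

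Other genes of the pathways, from 3 lists, also ranged from unread in NEB to higher in NEB than in G&T. Of 11 sterol and isoprenoid genes, 10 were compared in G&T over NEB, with 3 at least 2-fold higher in G&T and 2 in NEB, against 35% and 23.6% of all genes. POR, which passes electrons to CYP51A1 and SQLE, was at 80.8 CPM in G&T and 193 in Takara and had 2 reads in NEB. CYB5R3, a cytochrome b5 reductase, was at 70.0, 223 and 2.13 CPM, and AACS, which activates acetoacetate, at 51.5, 52.4 and 0 CPM. GGPS1, which makes geranylgeranyl diphosphate, was at 60.1, 157 and 284 CPM, 4.73-fold higher in NEB than in G&T, and LBR, a sterol C14 reductase of the nuclear envelope, was at 138, 121 and 140.5 CPM.

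Of 14 genes of SREBP processing and sterol handling, 13 were compared in G&T over NEB, with 5 higher in G&T (all genes 35%) and 1 in NEB (23.6%). MBTPS1, the protease that makes the first cut in SREBP, was at 193, 257 and 41.5 CPM, and TMEM97 at 113, 162 and 137 CPM. NR1H2, an oxysterol receptor, was at 29.2 and 84.7 CPM and unread in NEB, STARD3 was at 36.2, 91.2 and 1.13 CPM, and ABCG1 at 20.9, 24.0 and 3.64 CPM. Of 26 genes of fatty acid synthesis and use, 15 were compared in G&T over NEB, with 5 higher in G&T (all genes 35%) and 2 in NEB (23.6%). SLC25A1, the mitochondrial citrate carrier that feeds ACLY, was at 280.1 CPM in G&T, 510.3 in Takara and 1.00 with NEB, where 1 cell held reads. HACD3 was at 264, 299 and 305.5 CPM, TECR at 114, 389 and 42.4, GPAM at 23.4, 10.4 and 0.125, and MID1IP1 at 12.2, 5.29 and 1.63. DGAT1 and FADS3 were at 15.9 and 12.1 CPM in G&T, 11.2 and 12.5 in Takara, and unread in NEB. ME1 and ACSL4 had no read in any of the 33 cells. Of the 10 G2 and mitosis genes, 2 were at least 2-fold higher in G&T than in NEB (all genes 35%) and 1 was higher in NEB (23.6%).

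Promoters were searched because SREBP, NF-Y and Sp1 are known to act together on these genes. The 250 bases before the start were taken from RefSeq (GRCh38.p14) for the 28 members that matched, and both strands were read. ACAT2, FASN, FDFT1 and SQLE had no matching promoter and were not searched. The SREBP-type motif TCACNCCAC was in 1 of 28, SREBF2, against 0.875% of 27305 promoters, and allowing 1 mismatch in 11 of 28 against 20.5%. The NF-Y motif CCAAT was in 18 of 28 (64.3%) against 33.04%, and the Sp1 motif GGGCGG in 25 of 28 (89.3%) against 42.3%. The Sp1 motif holds only G and C, and the member promoters ran from 57.3% (ELOVL5) to 82.3% (ACACA) G and C. The background was all promoters, not ones of like GC content, and the part of GC content was not tested. The stretch around the SREBF2 match, 133 bases before the start, is shown with the motif in capitals.
SREBF2, chr22:41832912-41833040, plus strand: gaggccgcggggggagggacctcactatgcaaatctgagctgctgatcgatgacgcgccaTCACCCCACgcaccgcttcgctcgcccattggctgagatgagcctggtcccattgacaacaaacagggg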

How the data were processed

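The authors deposited, for each protocol, 1 merged table of raw read counts per Ensembl gene, with rows for ERCC spike-ins and for reads that were unmapped, multimapping, without a feature or ambiguous. Per the labels and methods, reads were trimmed in 2 rounds with Trim Galore, checked with FastQC and aligned to GRCh38 with STAR, whose gene counts leave out multimapping reads and reads shared by overlapping genes. The annotation release and strand setting are not given in the sources used here. SMART-seq3 cells are not analysed here. Libraries for Takara and G&T were made by tagmentation and those for NEB by enzymatic fragmentation.

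Cells were kept with at least 1000 genes, a library of at least 600000 reads, no more than 30% of reads on mitochondrial genes and 25% on ERCC, which with the fixed list of wells left 33. ERCC and summary rows were left out of the total. Counts of the 11 kept cells were summed and divided by their reads on genes. Ratios were log2(CPM + 1), over genes with a mean of at least 10 CPM in the pair. No test across genes was made, because each protocol is 1 sample. GC content, lengths and overlaps came from GENCODE canonical transcripts on GRCh38. The members, the lists and the wells were chosen with earlier results of these data known, and the relations with GC content and length were looked for after the values were seen. Named with all values were the 3 members of each branch with the largest ratio between any 2 protocols and the 2 most abundant per length; from the wider lists, the 2 most abundant, those past 4-fold with at least 10 CPM in a protocol, and those with no read in any kept cell. Coding sequence was read only from members off chromosome 8. Alternatives covered the scaling, the pseudocount, the fold, the cells used and leaving out each cell. Scripts ran in Python 3.11.15 (scipy 1.17.1, pandas 2.3.3, pysam 0.24.0, numpy 2.4.6), and edgeR 4.0.16 in R 4.3.3 for TMM scaling factors only. Scripts were tested on simulated data with known folds. The simulated cells were Poisson draws around 1 mean, without the further variation between cells seen here.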

Additional observations from a re-analysis of the deposited data

Results flagged for a closer look

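The 7 removed cells enter no main comparison, and 5 of them held more than 3 reads on the 32 members. With no control cells, that limit alone set which of them are named, and each is given beside the kept cells of its protocol. Members took 0.314% of the reads on genes in G&T cell C2 (2213 reads, 31 members) and 0.350% in G&T cell F1 (2041 reads, 28 members), where the kept G&T cells ran from 0.140% to 0.427%. In NEB, cell B2 held 0.171% (772 reads, 9 members, with 28.4% ERCC reads) and cell F2 0.288% (1583 reads, 17 members), where the kept cells ran from 0.197% to 0.402%. Takara cell C2 held 0.137% (21 reads of 15325, 7 members, with 91.3% ERCC reads), below the kept Takara cells, which ran from 0.338% to 0.443%.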

How the results depend on the processing

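No paired analysis was possible because the results come from no test and the replicate numbers only follow the accession order. Of the alternative values of the main results, 673 stayed within their spread or 1.5 times the count and 40 moved. Of those for single members 1209 stayed, 37 moved and 2 changed sign. For the log2 ratio of a member, the spread was the SD between cells, combined over both protocols. In G&T over NEB it was 3.28 for HSD17B7 and 3.58 for STARD4. Large shifts can stay within so wide a spread, so the number that stayed says little about how firm the ratios are. With the median of the cells' CPM in place of the pooled CPM, the log2 ratio of G&T over NEB became 2.86 for HSD17B7 and 3.08 for STARD4, and the members' median 3.21 in place of 0.38 (all genes 1.38 in place of 0.20). In G&T over Takara the members higher in Takara, 7 at 2-fold, became 4 without mitochondrial genes, 3 with a pseudocount of 10, 15 at 1.5-fold and 0 at 4-fold, and those higher in G&T, 4, became 7 at 1.5-fold and 0 at 4-fold. At 4-fold, 2 members were higher in NEB than in G&T, 1 was higher in NEB than in Takara and 7 were higher in Takara than in NEB; with ERCC reads in the total 3 were higher in NEB than in Takara. Each NEB cell above each Takara cell held for 0 members with all deposited cells, with ERCC reads in the total and with thinned cells. The thinned cells came from 1 random draw. The reverse held for 0 members with all deposited cells. All deposited cells take in nearly empty wells (Takara C2 and F1, NEB F1). The Takara and NEB values with all deposited cells therefore say little about the kept cells. The median correlation between members became 0.15 in G&T and -0.017 in NEB (sterol enzymes 0.10) without the 2 farthest cells, and in Takara 0.29 for all members and 0.31 for sterol enzymes with all deposited cells, beside 0.34 over all genes. The correlation of sterol with fatty acid sums in NEB became 0.12 with all deposited cells. Takara cells held 27.1 members with all deposited cells and 30 at 5 reads or more; their summed members were 3372 CPM with all deposited cells and 4280.2 without mitochondrial genes, and their sterol enzymes 2423 and 3098. Per ERCC read, an alternative added after seeing the data, the coefficient of variation in Takara was 33.7% for mevalonate, 31.5% for squalene to cholesterol, 39.0% for control, 27.2% for fatty acids, 30.9% for sterol enzymes and 29.6% for all members, and in NEB 61.0% for mevalonate, 58.2% for sterol enzymes and 57.1% for all members. With 1 mismatch the SREBP-type motif was in 11 member promoters. Leaving out 1 cell gave 4 to 12 members higher in Takara than in G&T, rho with GC content of 0.77 to 0.82 in G&T over NEB and 0.71 to 0.77 in Takara over NEB, and rho with length of 0.63 to 0.75 in G&T over Takara. The causes were not tested. Depth limits what 0 reads mean: 3 reads over the 11 cells are 0.376 CPM with NEB, 0.316 with G&T and 0.256 with Takara.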
